A study of Mus musculus with 6 samples.

Results

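Genes that mark the tissue macrophages of the fetus were measured in RNA-seq of mouse ovaries at 13.5 days post coitum (dpc), with and without exposure of the mother to acetaminophen (APAP, paracetamol) and ibuprofen (IBU, a non-steroidal anti-inflammatory drug). The genes, Csf1r, Adgre1, Cx3cr1, Mrc1, Lyve1, Aif1, Fcgr1, C1qa, C1qb and C1qc, were taken by symbol as 10 of the 48709 genes of the count table. The rule did not use their levels, but the choice was made with earlier results of these data known. Wild-type pregnant CD1 females were gavaged from 10.5 to 13.5 dpc with ethanol diluent (control, 3 libraries) or with APAP at 30 mg/kg per day together with IBU at 15 mg/kg per day (APAP+IBU, 3 libraries). CD1 is an outbred stock, and all groups were wild type. Each library came from a separate pool of gonads from the litters of a pair of dams, so the animals within a pool were not separated. The exposed libraries carry only Ibu in their titles, whereas their exposure label and the dosing protocol name both drugs, and the exposure label was used.

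Fetal macrophages are seeded by yolk sac and fetal liver progenitors and settle in nearly every organ, including the gonad, where they clear dying cells and take part in shaping the vessels. They depend on the receptor encoded by Csf1r, which binds the growth factors CSF1 and IL34. The other genes encode surface receptors (Adgre1, the F4/80 antigen; Cx3cr1, the fractalkine receptor; Mrc1, the mannose receptor; Lyve1, a hyaluronan receptor; Fcgr1, a high-affinity receptor for IgG), a cytoskeletal protein (Aif1, also called IBA1) and the 3 chains of C1q, the recognition molecule of the classical complement pathway. Several are shared with other cells: Lyve1 and Mrc1 are also made by lymphatic and some other endothelium.

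The libraries held 37811968 to 48954631 counted reads, and levels are given as CPM, each count divided by the TMM-scaled library total. Ovarian and germ cell markers were present in each library, with Wnt4 at 106 to 203 CPM and Ddx4 at 191 to 268 CPM, and summed Sertoli and Leydig cell genes reached at most 54.0 CPM. The granulosa cell marker Foxl2 was low and varied widely, at 8.16, 2.38 and 0.944 CPM in controls and 2.21, 4.37 and 5.21 CPM after exposure. Control replicate 3 and APAP+IBU replicate 3 stood apart from the other 4 libraries. All 15 of 15 hepatocyte genes were higher in both of these libraries than in each of the other 4, an ordering held by 1575 of the 20167 tested genes (7.81%). Alb, the serum albumin gene, was at 23.7, 49.4 and 691 CPM in control replicates 1 to 3 and at 19.5, 105 and 1270 CPM in the exposed ones. Results were therefore also computed from replicates 1 and 2 alone, a choice of libraries made with earlier results of these data known, so the 4-library values are not independent evidence.

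None of the 10 macrophage genes passed the test over the 6 libraries, and the fitted log2 fold changes (APAP+IBU over control) of all 10 were below 0, with a median of -0.38 against -0.005 over all tested genes. By the edgeR quasi-likelihood test with Benjamini-Hochberg adjustment, 0 of the 10 had an adjusted p under 0.05, as did 0 of all 20167 tested genes (0%), for which the smallest adjusted p was 0.0906. At an unadjusted p under 0.05, 2 of the 10 (Cx3cr1 and Aif1) were lower after exposure, beside 648 tested genes (3.21%). In all, 1254 tested genes had an unadjusted p under 0.05 in either direction, and DESeq2 called 192 genes and 1 of the 10 (Aif1). Because the tissue is a mixture, fewer macrophages and less RNA per macrophage cannot be told apart.

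The summed level of the 10 genes was 121, 129 and 121 CPM in the control libraries and 86.7, 82.5 and 116 CPM in the exposed libraries. Each exposed sum lay below each control sum, and APAP+IBU replicate 3 lay close to the controls. The sums of 2 other gene lists separated the groups too. Endothelial and lymphatic genes summed to 656 to 688 CPM in controls and 572 to 617 CPM after exposure. Chemokine, cytokine and receptor genes summed to 166 to 181 and 123 to 150 CPM. Most of that sum came from Cxcl12, a chemokine gene of stromal cells, at 118, 126 and 149 CPM in controls and 117, 86.9 and 110 CPM after exposure. Of the 11 tested genes of this list, Cxcl12 was the only 1 with every control above every exposed library. The sums of the remaining lists overlapped between the groups. For single genes this full separation was held by 2 of 10, Cx3cr1 and Aif1, beside 1194 of the 20167 tested genes (5.92%). With only replicates 1 and 2, 8 of 10 genes had both control libraries above both exposed ones, all but Mrc1 and Lyve1, beside 7178 tested genes (35.6%). With those 4 libraries the test called 4 genes lower after exposure (Aif1, C1qa, C1qb and C1qc), where it called 2670 of 20633 genes lower (12.9%). None of these 4 calls held with offsets for gene length and GC content, with adjusted p-values of 0.0540 to 0.165. In the same 4-library fit genes of other cells were called too, lower in 6 of 13 erythroid genes (median log2 fold change -0.73), 4 of 7 tested Sertoli and Leydig cell genes (-1.11), 4 of 8 germ cell genes and 2 of 14 endothelial genes, and higher in 1 erythroid, 3 germ cell and 1 endothelial gene, beside 2937 genes called higher in all (14.2%).

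**Figure D1:**
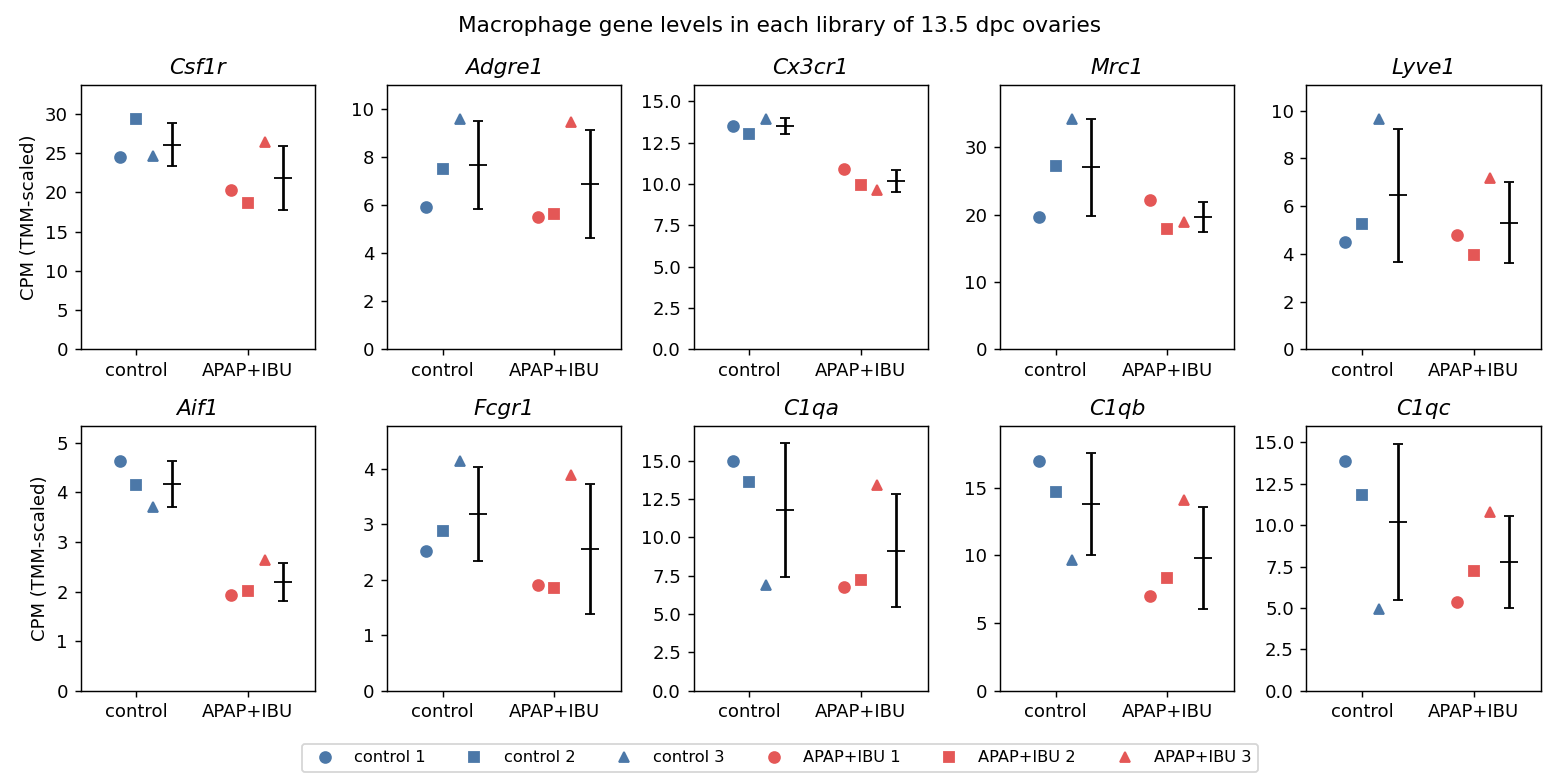
Level of each of the 10 macrophage genes in CPM, one panel per gene, with a point for each of the 3 control and 3 APAP+IBU libraries and the mean and SD of each group. Only Cx3cr1 and Aif1 have all 3 control points above all 3 exposed points, and the C1q genes have APAP+IBU replicate 3 among the high points.

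Levels between genes were compared per kilobase of exon. Averaged over the 6 libraries, C1qb (10.8 CPM per kb) and C1qa (10.1) were the highest, followed by C1qc (4.67), Csf1r (4.15), Mrc1 (3.66), Cx3cr1 (2.62), Adgre1 (2.24), Aif1 (2.07), Lyve1 (2.01) and Fcgr1 (1.11). The lowest read count of any of the 10 genes in any library was 85 and the highest was 1479, so every member was detected in every pool.

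Csf1r encodes the receptor tyrosine kinase on which macrophage survival depends. The gene (ENSMUSG00000024621) lies at chr18:61100598-61132149 on the plus strand (GRCm38), and its exons overlap those of the opposite-strand gene Hmgxb3 by 873 bases. Its level was 24.5, 29.3 and 24.6 CPM in controls and 20.3, 18.6 and 26.4 CPM after exposure, means of 26.1 ± 2.73 and 21.8 ± 4.06 (SD, n = 3 each). The first 2 exposed libraries lay below every control and the third lay inside the control range. The log2 fold change was -0.26 (SE 0.18, 95% interval -0.67 to 0.14), with an edgeR adjusted p of 0.699, and with replicates 1 and 2 alone it was -0.44 (adjusted p 0.0547). Leaving out single libraries moved it between -0.45, without APAP+IBU replicate 3, and -0.17.

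The genes around the receptor did not pass the test either, with 0 of 15 ligands, signalling partners and transcription factors called, 5 fitted fold changes above 0 and 10 below, and a median of -0.09. Csf1, the main ligand and like Il34 and Spi1 named after its values were seen, was at 10.8, 12.2 and 11.6 CPM in controls and 10.2, 8.36 and 9.81 CPM after exposure. Its groups did not overlap, and its log2 fold change was -0.28 (edgeR adjusted p 0.692). It was 1 of 15 genes with every control above every exposed library, beside 5.92% of tested genes. Il34, the other ligand, was at 2.05, 2.86 and 1.66 CPM and at 2.54, 2.86 and 2.45 CPM, a log2 fold change of 0.26 with overlapping groups. Spi1, which encodes the myeloid master regulator PU.1, was at 2.57, 3.29 and 1.22 CPM in controls and 0.867, 1.1 and 2.42 CPM after exposure. As for the C1q genes described further on, control replicates 1 and 2 and APAP+IBU replicate 3 each lay above the remaining libraries. This ordering was held by 3937 of the 20167 tested genes (19.5%). A link between Spi1 and the C1q genes was not tested.

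The adaptor genes Tyrobp and Fcer1g, which pair with activating immune receptors, were the most abundant of these 15 genes per kilobase. Tyrobp was at 6.45, 7.42 and 6.98 CPM in controls and 4.93, 5.72 and 11.1 CPM after exposure, and Fcer1g at 4.98, 5.22 and 3.98 and at 3.23, 3.28 and 6.59 CPM. In both, 2 exposed libraries lay below all controls and APAP+IBU replicate 3 lay above them. Maf, which encodes a macrophage transcription factor, was at 37.7, 36.9 and 38.9 CPM and at 50.9, 46.5 and 38.6 CPM, a log2 fold change of 0.26.

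Cx3cr1, the receptor for the chemokine CX3CL1, had the smallest SD relative to its mean in each group. The gene (ENSMUSG00000052336) lies at chr9:119901616-120069879 on the minus strand. Its level was 13.5, 13.0 and 13.9 CPM in controls and 10.9, 9.91 and 9.66 CPM after exposure, means of 13.5 ± 0.489 and 10.2 ± 0.658 (SD, n = 3 each). All 3 controls lay above all 3 exposed libraries, replicate 3 included. The log2 fold change was -0.41 (SE 0.15, 95% interval -0.76 to -0.05), a ratio of 0.754. The edgeR unadjusted p was 0.0304 and the adjusted p 0.692, and the exact permutation test (two-sided) gave 0.1, the smallest p that 3 against 3 libraries allow. Leaving out any single library moved the log2 fold change only between -0.47 and -0.38. Its ligand gene Cx3cl1 was at 15.7, 14.6 and 11 CPM in controls and 10.4, 13.6 and 11.6 CPM after exposure, with overlapping groups.

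Aif1, a calcium- and actin-binding protein gene used as a general macrophage marker, had the fitted fold change furthest from 0 among the 10. The gene (ENSMUSG00000024397) lies at chr17:35170991-35176068 on the minus strand. It was counted 177, 155 and 161 times in controls and 98, 92 and 101 times after exposure, that is 4.64, 4.15 and 3.71 CPM against 1.93, 2.01 and 2.63 CPM. The groups did not overlap, with means of 4.17 ± 0.467 and 2.19 ± 0.382 CPM (SD, n = 3 each). The log2 fold change was -0.93 (SE 0.24, 95% interval -1.48 to -0.38), a ratio of 0.525. The edgeR unadjusted p was 0.00471 and the adjusted p 0.444, whereas DESeq2 gave an adjusted p of 0.0308 and called it. The log2 fold change stayed between -1.10 and -0.84 when single libraries were left out, and was -0.76 (adjusted p 0.393) with offsets for gene length and GC content. With replicates 1 and 2 alone Aif1 fell, from 4.40 ± 0.348 to 1.97 ± 0.0542 CPM (SD, n = 2 each), a log2 fold change of -1.1 with an edgeR adjusted p of 0.0164, which was 0.0540 with the length and GC offsets.

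**Figure D2:**
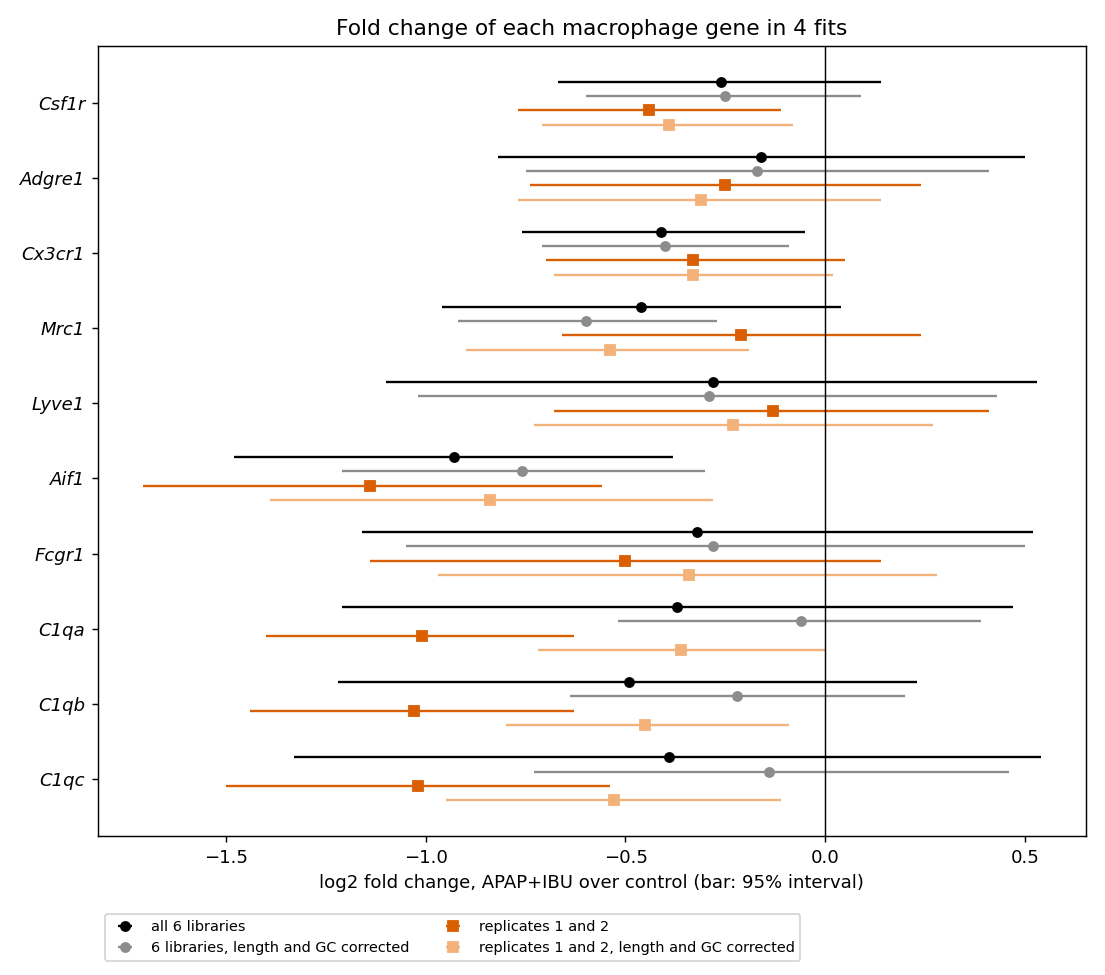
Fitted log2 fold change (APAP+IBU over control) of the 10 macrophage genes with 95% intervals, from all 6 libraries (black) and from replicates 1 and 2 alone (orange), each also with length and GC correction (paler). All points lie below 0. With all 6 libraries the intervals of Cx3cr1 and Aif1 lie wholly below 0 without the correction, and those of Cx3cr1, Mrc1 and Aif1 with it.

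Mrc1 and Lyve1 encode endocytic receptors of resident macrophages that sit along vessels. Mrc1 (ENSMUSG00000026712), at chr2:14229392-14332057 on the plus strand, was at 19.7, 27.2 and 34.1 CPM in controls and 22.1, 17.8 and 18.9 CPM after exposure. Control replicate 1 lay inside the exposed range, and the control libraries spread widely (27 ± 7.19 against 19.6 ± 2.25 CPM, SD, n = 3 each). The log2 fold change was -0.46 (SE 0.22, 95% interval -0.96 to 0.04), with an edgeR unadjusted p of 0.0653 and an adjusted p of 0.692, and it was -0.64 without control replicate 1 and -0.26 without control replicate 3. Mrc1 has long exons of low GC content, 6371 bases and 43.4%, against medians of 3613 bases and 49.4% over tested genes. With offsets for both, its log2 fold change was -0.60 (SE 0.14, unadjusted p 0.00261, adjusted p 0.276). After this correction 3 of 10 genes (Cx3cr1, Aif1 and Mrc1) had all controls above all exposed libraries, beside 1585 tested genes (7.86%).

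Lyve1 (ENSMUSG00000030787), at chr7:110850607-110863239 on the minus strand, was at 4.49, 5.25 and 9.63 CPM in controls and 4.79, 3.95 and 7.18 CPM after exposure. The highest library of each group was replicate 3 and the groups overlapped. The log2 fold change was -0.28 (SE 0.35, 95% interval -1.10 to 0.53, edgeR adjusted p 0.790), and it was 0.12 without control replicate 3. Endothelial genes, which could share these transcripts, were 0 of 14 called, with a median log2 fold change of -0.19 and a summed level of 656 to 688 CPM in controls and 572 to 617 CPM after exposure. Pecam1 was at 136, 126 and 157 CPM and at 107, 95.7 and 130 CPM (-0.33), Cdh5 at 76.6, 79.1 and 86.6 and at 86.9, 80.2 and 78.5 CPM (0.02), and Pdpn at 52.3, 53.4 and 45.8 and at 34.2, 58.8 and 33.6 CPM. The lymphatic regulator Prox1 was at 3.88 to 6.70 CPM in controls and 4.83 to 7.42 CPM after exposure. The part of endothelium in the Mrc1 and Lyve1 values was not tested.

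Adgre1 and Fcgr1, which encode surface receptors of mature macrophages, were highest in replicate 3 of both groups. Adgre1 (ENSMUSG00000004730), at chr17:57358691-57483527 on the plus strand, was at 5.93, 7.5 and 9.56 CPM in controls and 5.52, 5.61 and 9.45 CPM after exposure. Fcgr1 (ENSMUSG00000015947), at chr3:96282909-96293969 on the minus strand, was at 2.52, 2.89 and 4.15 CPM in controls and 1.91, 1.86 and 3.90 CPM after exposure. In both genes the replicate 3 libraries of the 2 groups were the highest of all and close to each other. The log2 fold changes were -0.16 (SE 0.29, 95% interval -0.82 to 0.50, edgeR adjusted p 0.854) and -0.32 (SE 0.37, 95% interval -1.16 to 0.52, adjusted p 0.773), and that of Adgre1 was 0.03 without control replicate 3. For Fcgr1 it was -0.08 without control replicate 3 and -0.78 without APAP+IBU replicate 3.

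The ordering with both replicate 3 libraries above the other 4 was held by 3 of the 10 macrophage genes (Adgre1, Lyve1 and Fcgr1), beside 7.81% of tested genes. It was held by 6 of 7 genes of liver macrophages, 7 of 13 erythroid genes and 4 of 30 further macrophage and leukocyte genes. The liver macrophage genes other than Slc40a1, a split made after the values were seen, summed to 2.1, 2.01 and 6.98 CPM in controls and 0.986, 2.16 and 5.44 CPM after exposure. Among them Clec4f, the defining Kupffer cell lectin, was at 0, 0.0803 and 0.622 CPM and at 0.0197, 0.218 and 0.625 CPM, and Cd5l at 0.708, 0.375 and 2.30 and at 0.118, 0.699 and 2.06 CPM. Afp, the fetal albumin-like gene of hepatocytes, was at 153, 365 and 889 CPM and at 125, 187 and 1280 CPM. These genes were thus highest in the libraries in which Adgre1, Lyve1 and Fcgr1 were highest, and their part in those values was not tested. Over the 6 libraries none of these genes was called: 0 of 15 hepatocyte genes (median log2 fold change 0.55), 0 of 5 tested liver macrophage genes (-0.27) and 0 of 13 erythroid genes (-0.22). With replicates 1 and 2 alone 1 hepatocyte gene was called lower, with a median of -0.19, and 0 liver macrophage genes were called.

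**Figure D3:**
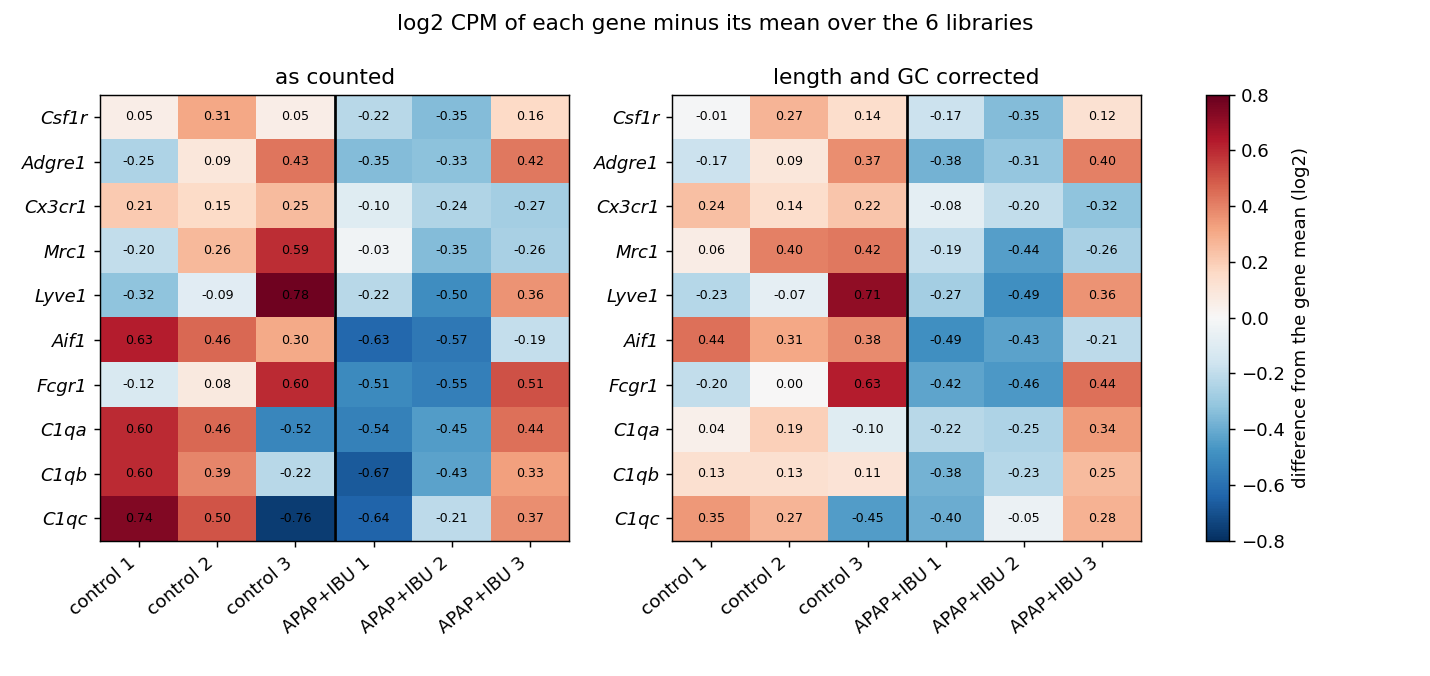
Level of each macrophage gene in each library as log2 CPM minus the gene's mean over the 6 libraries, with genes in rows and the 3 control and 3 APAP+IBU libraries in columns (left, as counted; right, after correction for exon length and GC content). APAP+IBU replicates 1 and 2 are below 0 for all genes in both panels, and the replicate 3 columns are above 0 for Adgre1, Lyve1 and Fcgr1. The C1qa, C1qb and C1qc rows span less on the right.

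C1qa, C1qb and C1qc encode the 3 chains that assemble into C1q, which binds immune complexes and dying cells, and macrophages are its main source. The genes lie side by side on the minus strand between chr4:136880129-136898803, a cluster of 18.7 kb. C1qb (ENSMUSG00000036905) spans chr4:136880129-136886187, C1qc (ENSMUSG00000036896) chr4:136889804-136893065 and C1qa (ENSMUSG00000036887) chr4:136895917-136898803. The start regions of C1qb and C1qc are shown because the chain genes were high and low in nearly the same libraries, and both hold the letters searched for. They run from 250 bases before to 50 bases after the start annotated by RefSeq (GRCm38.p6), at chr4:136886151-136886450 and chr4:136892865-136893164, read 5′ to 3′ on the minus strand, and the RefSeq start used for C1qc differs from the outermost one of the gene model above. Capitals mark GAGGAA, the core of the site bound by PU.1, or its reverse complement.
C1qb: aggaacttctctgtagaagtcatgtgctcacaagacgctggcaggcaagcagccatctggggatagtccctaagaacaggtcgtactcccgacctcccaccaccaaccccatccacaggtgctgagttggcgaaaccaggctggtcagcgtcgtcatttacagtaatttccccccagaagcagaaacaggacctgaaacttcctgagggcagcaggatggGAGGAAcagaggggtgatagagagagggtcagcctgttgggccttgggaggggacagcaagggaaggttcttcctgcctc
C1qc: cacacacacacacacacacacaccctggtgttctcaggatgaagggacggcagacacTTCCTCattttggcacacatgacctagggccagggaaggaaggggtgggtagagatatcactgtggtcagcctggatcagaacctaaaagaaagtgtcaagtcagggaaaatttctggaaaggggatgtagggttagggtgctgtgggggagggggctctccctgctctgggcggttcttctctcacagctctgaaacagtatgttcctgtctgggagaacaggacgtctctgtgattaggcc
Windows were matched for 6 of the 10 genes (Cx3cr1, Mrc1, Aif1, Fcgr1, C1qb and C1qc). GAGGAA stood on either strand in 5 of these 6, all but Cx3cr1, and in 28.3% of 32851 such windows, and TATAAA stood in 0 of the 6 and in 13.6% of all windows. In C1qb the match ran from position -30 to -25 and in C1qc from -193 to -188 relative to the start, and neither overlapped a match of the other motif. A match of letters is not a measured binding site.

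The C1q genes had control replicates 1 and 2 and APAP+IBU replicate 3 high and the other 3 libraries low. C1qa was at 15.0, 13.6 and 6.86 CPM in controls and 6.78, 7.23 and 13.4 CPM after exposure. C1qb was at 17, 14.7 and 9.63 CPM in controls and 7.02, 8.30 and 14.1 CPM after exposure. C1qc was at 13.9, 11.8 and 4.93 CPM in controls and 5.36, 7.21 and 10.8 CPM after exposure. In each gene the replicate 3 libraries lay with the opposite group, so the groups overlapped. The log2 fold changes were -0.37 (SE 0.36, 95% interval -1.21 to 0.47) for C1qa, -0.49 (SE 0.31, -1.22 to 0.23) for C1qb and -0.39 (SE 0.41, -1.33 to 0.54) for C1qc. Their edgeR adjusted p-values were 0.752, 0.698 and 0.759. Leaving out single libraries moved them from -0.78 to -0.17 for C1qa, -0.87 to -0.31 for C1qb and -0.73 to -0.11 for C1qc, furthest from 0 without APAP+IBU replicate 3 (for C1qc equally without control replicate 3).

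This ordering, with control replicates 1 and 2 and APAP+IBU replicate 3 each above the other 3 libraries, was held by the C1q genes alone among the 10, and by 3937 tested genes (19.5%). Summed per kilobase of exon, the chains were at 37.3, 32.8 and 18 in controls and 15.7, 18.3 and 31.4 CPM per kb after exposure, means of 29.3 ± 10.1 and 21.8 ± 8.40 (SD, n = 3 each, exact permutation p = 0.3). The shares of the chains in that sum stayed within narrow ranges, 36.7% to 41.4% for C1qa, 41.0% to 49.2% for C1qb and 14.2% to 20.4% for C1qc. The lowest share of C1qc and the highest of C1qb were both in control replicate 3. The summed chains were 8.78, 6.47 and 4.23 times Csf1r per kilobase in controls and 4.47, 5.68 and 6.88 times after exposure, with overlapping groups.

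**Figure D4:**
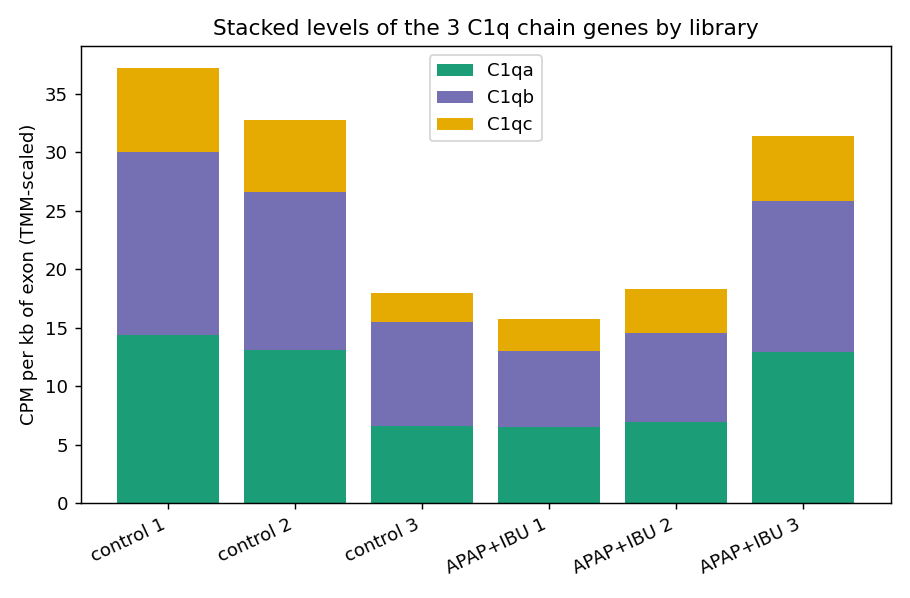
Level of C1qa, C1qb and C1qc in CPM per kilobase of exon, stacked for each of the 6 libraries. The stacks of control replicates 1 and 2 and of APAP+IBU replicate 3 reach 37.3, 32.8 and 31.4, and the other 3 stay between 15.7 and 18.3.

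With replicates 1 and 2 alone the C1q chains fell together: C1qa from 14.3 ± 0.972 to 7.0 ± 0.315 CPM, C1qb from 15.9 ± 1.61 to 7.66 ± 0.904 CPM and C1qc from 12.9 ± 1.48 to 6.28 ± 1.3 CPM (SD, n = 2 each). Their log2 fold changes were -1.01, -1.03 and -1.02, with edgeR adjusted p-values of 0.00785, 0.00850 and 0.0137. C1q exons are short and rich in G and C, with 1040 bases and 59.5% GC for C1qa, 1088 bases and 57.4% for C1qb and 1931 bases and 57.5% for C1qc. The trend that genes of C1qa's length and GC content followed in each library was at 0.57, 0.27 and -0.42 (log2) in controls and -0.32, -0.20 and 0.10 after exposure, above 0 in the same 3 libraries in which C1qa was high. With offsets that remove this trend, the 4-library log2 fold changes were -0.36, -0.45 and -0.53 (adjusted p 0.165, 0.0890 and 0.0883), and none of the 10 genes was called, where 1699 of 20633 genes were called lower (8.23%). With the same offsets and all 6 libraries they were -0.06, -0.22 and -0.14 (adjusted p 0.915, 0.671 and 0.860).

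Genes of the proteins that act with C1q were 0 of 12 called, with 3 fitted fold changes above 0, 9 below and a median of -0.15. Calr, which encodes calreticulin, a chaperone that binds C1q, was at 1110, 1070 and 834 CPM in controls and 698, 681 and 850 CPM after exposure (log2 fold change -0.44). Serping1, the inhibitor of the C1 proteases, was at 67.3, 66.8 and 53.8 CPM and at 56.3, 50.3 and 57.3 CPM, and Cd93 at 56.2, 60.9 and 82.0 and at 75.7, 64.6 and 64.3 CPM. The groups overlapped in all 3 of these genes. C4b, which encodes complement component C4 and was named after its values were seen, was at 1.02, 1.55 and 1.08 CPM in controls and 0.513, 0.590 and 0.651 CPM after exposure (log2 fold change -1.06, edgeR unadjusted p 0.0107, adjusted p 0.686). It was the only one of the 12 whose control libraries all lay above the exposed ones, beside 5.92% of tested genes. The partner proteases of C1q did not separate the groups, with C1ra, also named after its values were seen, at 6.01 to 9.68 CPM in controls and 5.68 to 6.95 CPM after exposure.

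Of a further 30 macrophage and leukocyte genes 0 were called over all libraries, with a median log2 fold change of -0.04, 11 above 0 and 19 below. Lyz2, the lysozyme gene of macrophages and granulocytes, was at 14.3, 12.0 and 10.1 CPM in controls and 6.64, 8.60 and 34.2 CPM after exposure, with APAP+IBU replicate 3 far above the rest. Dab2, an endocytic adaptor gene also made by other cells, was at 65.0, 79.8 and 114 CPM and at 96.0, 80.4 and 77.6 CPM. With replicates 1 and 2 alone, 5 of the 30 were called lower, beside 12.9% of all genes, and 1 higher, with a median of -0.38. Stab1, a scavenger receptor gene named after its values were seen, was at 53.7, 55.3 and 41.9 CPM in controls and 35.3, 31.0 and 41.6 CPM after exposure (log2 fold change -0.48, edgeR unadjusted p 0.0196). Of these 30 genes, 2 had every control above every exposed library, Stab1 and Folr2, beside 5.92% of tested genes. Folr2, a folate receptor gene, had the lowest fitted log2 fold change of the 30 (-0.55). The highest was that of Cd33 (0.56), with overlapping groups. Both were named after their values were seen.

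**Figure D5:**
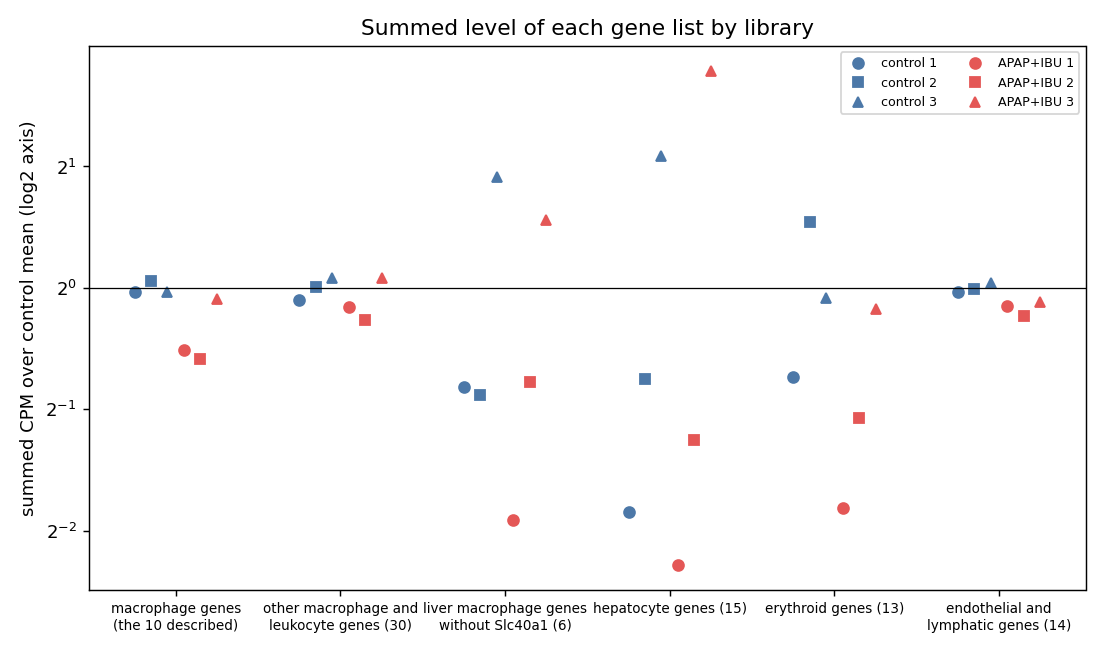
Summed CPM of 6 gene lists in each library divided by the mean of the 3 controls, on a log2 axis, with colour for the group and a symbol for the replicate. The sum of the 10 macrophage genes lies at 121 to 129 CPM in controls and 82.5 to 116 CPM after exposure, and the hepatocyte sum spans 275 to 2100 and 203 to 3410 CPM.

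The mean profile of the 10 genes over the 6 libraries, as log2 CPM centred on each gene's mean, was 0.19, 0.26 and 0.15 in controls and -0.39, -0.40 and 0.19 after exposure. Among the macrophage genes Csf1r lay nearest to it, at a root mean square distance of 0.105, and C1qc farthest, at 0.467. Among 12456 other genes with a mean of at least 5 CPM, the nearest 8 were C1qbp (0.058), Fdft1 (0.060), Gm4737 (0.066), Fdps (0.071), Eef1akmt1 (0.072), Gm49342 (0.076), Kcnip3 (0.082) and Tex19.1 (0.083). Fdft1 and Fdps encode enzymes of sterol synthesis and C1qbp a mainly mitochondrial protein. None of the 8 belonged to any of the gene lists used here.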

How the data were processed

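RNA of 6 pools of 13.5 dpc ovaries (3 control, 3 APAP+IBU) was made into stranded mRNA libraries and sequenced. The authors aligned reads to mm10 with TopHat2 2.0.14 and Bowtie2 2.1.0 and counted them per gene with HTSeq 0.6.1, and the deposited values are these raw counts (versions from the study's methods and the submitters' processing notes). Whether counting used strand is not given in the sources used here. How reads were assigned where Csf1r and the antisense gene Hmgxb3 overlap is therefore not known. Libraries held 37811968 to 48954631 counts.

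Genes were filtered with filterByExpr (20167 kept), scaled by TMM and tested between groups with edgeR 4.0.16 (quasi-likelihood, Benjamini-Hochberg over all tested genes, threshold 0.05) in R 4.3.3. Alternatives were DESeq2 1.42.0, other scalings and filters, a replicate block, each library left out, replicates 1 and 2 alone, and offsets from a loess (span 0.3) of log counts on exon length and GC content (GENCODE M21, GRCm38, 20103 genes). Centred profiles used log2 CPM with a prior count of 1. Between 3 and 3 libraries the exact permutation test cannot go below 0.1. Scripts were tested on simulated data.

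The 10 genes and the lists were chosen with earlier results of these data known. The text names the 10, any other listed gene with an adjusted p under 0.05, the 3 most abundant genes per kilobase of each list, defining cell markers and the 8 nearest profiles. Some genes that this rule takes in are not reported here. Other genes are marked as named after their values were seen. Pools of a group are separate litters, and the p-values measure the spread between pools.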

Additional observations from a re-analysis of the deposited data

How the results depend on the processing

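With all 6 libraries edgeR called 0 genes and 0 of the 10 macrophage genes. All tested genes gave 192 calls with DESeq2, 120 with every gene of at least 1 count, 5607 with replicates 1 and 2 only and 2872 with replicates 1 and 2 only plus length and GC offsets, and 0 to 1064 when single libraries were left out, the 1064 without control replicate 3. Of the macrophage genes, 1 was called by DESeq2 and 4 with replicates 1 and 2 only (0 once length and GC offsets were added), and 0 to 0 when single libraries were left out. Their median log2 fold change, -0.38, ranged from -0.66 (without APAP+IBU replicate 3) to -0.22 when single libraries were left out and from -0.47 to -0.27 otherwise. When single libraries were left out, the log2 fold change of Adgre1 ranged from -0.49 to 0.03 and that of Lyve1 from -0.59 to 0.12, both above 0 without control replicate 3. The causes of these moves were not tested. In all, 153 of the gene values under alternatives kept their sign and side of the threshold, 5 passed it (Aif1 with DESeq2, and Aif1, C1qa, C1qb and C1qc with replicates 1 and 2 only) and 2 turned.

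The deviations of same-numbered libraries of the groups had correlations of -0.07, -0.02 and -0.04, and the main fit did not use pairs. The paper describes independent experiments with dams of both groups, but whether equal numbers mark the same experiment is not given. Adgre1, Lyve1 and Fcgr1 were highest in both replicate 3 libraries. With the replicate block their SE was 0.23, 0.25 and 0.29, against 0.29, 0.35 and 0.37 without it. The SE of the other members rose with the block. The fit with the replicate block called 2 genes and 0 of the 10, with a median of -0.38, and 34 genes with length and GC offsets added to the block.

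Aif1 was counted 92 to 177 times and Fcgr1 85 to 180 times per library. In the main fit the SE of their log2 fold changes was 0.24 and 0.37. The SE of the other macrophage genes ran from 0.15 (Cx3cr1) to 0.41 (C1qc). Whether the low counts limit the precision of Aif1 and Fcgr1 was not tested.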

Other observations

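Transcripts of the cytokine genes Il1b, Il6, Il10 and Tnf were at low counts in all 6 libraries. Il1b was counted 0 to 6 times, Il6 0 to 8 times, Il10 0 to 6 times and Tnf 4 to 12 times per library. The chemokine genes Ccl2 (5 to 21 counts), Ccl3 (16 to 33) and Ccl4 (9 to 19) were little higher. Of 17 chemokine, cytokine and receptor genes 11 were tested and 0 were called, with a median log2 fold change of -0.09. Cxcl12, a chemokine of stromal cells, was at 118, 126 and 149 CPM in controls and 117, 86.9 and 110 CPM after exposure (log2 fold change -0.33). It was 1 of the 11 tested genes without overlap of the groups, beside 5.92% of all tested genes with every control above every exposed library. Tgfb1 was at 20.5, 16.8 and 9.51 and at 8.20, 10.1 and 13.6 CPM.

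Lymphoid and mast cell genes ranged widely in count. The T cell gene Cd3e was counted 1 to 15 times and the mast cell receptor gene Fcer1a 0 to 1 times per library, whereas the mast cell protease gene Cpa3 (53 to 96), the B cell receptor gene Cd79a (51 to 108) and the recombinase gene Rag1 (37 to 96) were within reach of Fcgr1 (85 to 180). The granulocyte gene S100a9 was at 1.26, 2.78 and 4.26 CPM in controls and 1.3, 1.29 and 3.64 CPM after exposure, highest in the replicate 3 libraries. Of 18 genes of granulocytes, monocytes, mast cells and lymphocytes 11 were tested and 0 were called, with a median of -0.06. Among the marker lists of the gonad, 0 of 10 ovarian somatic genes (median 0.03), 0 of 8 germ cell genes (-0.41) and 0 of 7 tested Sertoli and Leydig cell genes (-0.92) were called over the 6 libraries. With replicates 1 and 2 alone 1 of 10 ovarian genes was called higher and 1 lower, 3 of 8 germ cell genes higher and 4 lower, and 4 of 7 Sertoli and Leydig cell genes lower. In that fit 14.2% of all tested genes were called higher and 12.9% lower. With length and GC offsets added, 1 ovarian gene was called higher, 1 germ cell gene lower and 2 Sertoli and Leydig cell genes lower. Over all genes 2872 of 20633 were then called in either direction.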
